A study of Mus musculus with 17 samples.

Results

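The phagocyte NADPH oxidase was examined in RNA-Seq data of peritoneal macrophages (PMs) through 5 genes, chosen by symbol and not by their values, among the 21683 rows of the deposited table. They are Cybb, Cyba, Ncf1, Ncf4 and Rac2, and all 5 were found and passed the filter on low values. The oxidase moves electrons from NADPH across a membrane to oxygen and so makes superoxide, which phagocytes use to kill microbes and which takes part in oxidative stress in the artery wall. Cybb encodes gp91phox (NOX2), the catalytic subunit, and Cyba encodes p22phox, the membrane partner that stabilizes it. Ncf1 (p47phox) and Ncf4 (p40phox) encode cytosolic subunits that move to the membrane on activation, and Rac2 encodes the small GTPase that joins them in blood cells. The oxidase is silent until these parts assemble, so mRNA levels describe the supply of subunits and not the output of superoxide.

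Thioglycollate-elicited PMs of 8-week-old C57BL/6 mice attached to plates for 4 h and were then cultured for 12 h with PBS or with 100 nM recombinant HIV protein Tat, which was expressed in Escherichia coli and cleared of endotoxin. The 3 groups were IKKβF/F PMs with PBS (F/F PBS, n = 6 libraries), IKKβF/F PMs with Tat (F/F Tat, n = 6) and IKKβΔMye PMs with Tat (ΔMye Tat, n = 5). All mice carried loxP-flanked IKKβ alleles, and the IKKβΔMye mice also carried 1 LysM-Cre knock-in allele, which deletes IKKβ in myeloid cells. IKKβΔMye PMs with PBS are not analysed here, so what separates the Tat-treated genotypes may have been present before treatment. The comparisons ask how transcripts differ with Tat in F/F macrophages, and how Tat-treated macrophages differ between the genotypes. Whether the response to Tat differs by genotype cannot be asked with these groups.

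The values are TPM, which give each gene's transcripts as a share of all transcripts in its library after correction for length. They were made by the authors with Salmon and keep no read number, so the depth of a library is unknown. The listed TPM of a library summed to 889318 to 903576, and each library correlated with the others of its group at a median r of 0.985 to 0.988 across tested genes. Mean Ikbkb, the gene of IKKβ, was 26.8 TPM with PBS and 23.2 TPM with Tat in F/F PMs, and at 16.4 TPM the ΔMye mean was 70.7% of the latter (log2 difference -0.51, adjusted p = 4.51e-05, limma). All 6 macrophage markers reached a mean of 1 TPM in each group, but their sum, mostly Lyz2, was 25494 to 26489 TPM with PBS and 9135 to 9755 TPM with Tat in F/F PMs, and 6849 to 7145 TPM in ΔMye PMs. Adgre1, which encodes F4/80, had means of 499, 441 and 512 TPM in this order and Mertk of 15.4, 20.1 and 24.3 TPM, while Csf1r had 381, 64.0 and 104 TPM, Cd68 2596, 1744 and 1886 TPM, and Itgam 178, 106 and 116 TPM. The LysM-Cre allele lies at Lyz2, so in ΔMye PMs the level of Lyz2, and with it the sum, cannot be told apart from an effect of that allele. The mean of each of the other markers was higher in ΔMye Tat than in F/F Tat. The part of these shifts in the differences of the 5 genes was not tested. Of the 10451 tested genes, the median log2 difference with Tat in F/F PMs was -0.65. ΔMye Tat minus F/F Tat had a median of 0.22, and ΔMye Tat minus F/F PBS had one of -0.43. Median-ratio scaling, which takes the middle of a library's ratios to the geometric mean over libraries as its size, brought these medians to -0.03, 0.01 and -0.01. The differences of the 5 genes are therefore given on the TPM as deposited and after scaling. In bulk RNA, a change in the share of cells of a type and a change in RNA per cell cannot be told apart.

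The 250 bases before the RefSeq starts of Cybb, Cyba and Ncf1 (GRCm38.p6, minus strand, printed 5′ to 3′) are shown here. The table of promoters holds 3 of the 5 genes, and Ncf4 and Rac2 are named only. Capitals mark matches, on either strand, to the letters of 5 motifs. They include GAGGAA (a sequence bound by PU.1, of which shorter forms were not searched) and an interferon element bound by interferon regulatory factors (GAAA, any 2 bases, GAAA). The others are a STAT element (TTC, any 3 bases, GAA), a κB element bound by NF-κB (GGG, any 2 bases, TT, any base, CC) and TGANTCA (AP-1).
Cybb, chrX:9469325-9469574: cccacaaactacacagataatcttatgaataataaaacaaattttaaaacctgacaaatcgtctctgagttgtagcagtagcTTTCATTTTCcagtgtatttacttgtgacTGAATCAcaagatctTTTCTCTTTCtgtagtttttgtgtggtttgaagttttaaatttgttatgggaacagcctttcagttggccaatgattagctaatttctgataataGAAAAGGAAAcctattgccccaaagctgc
Cyba, chr8:122432941-122433190: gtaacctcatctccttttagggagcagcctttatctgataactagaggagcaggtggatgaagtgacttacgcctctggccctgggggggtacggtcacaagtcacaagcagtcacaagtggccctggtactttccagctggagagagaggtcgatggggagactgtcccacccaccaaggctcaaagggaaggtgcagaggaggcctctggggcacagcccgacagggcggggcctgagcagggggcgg
Ncf1, chr5:134229626-134229875: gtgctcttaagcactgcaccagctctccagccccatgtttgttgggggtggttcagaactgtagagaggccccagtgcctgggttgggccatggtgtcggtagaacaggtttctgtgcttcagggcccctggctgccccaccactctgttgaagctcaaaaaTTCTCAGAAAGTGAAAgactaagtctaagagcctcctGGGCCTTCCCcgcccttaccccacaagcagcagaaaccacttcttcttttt

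Counted upstream from the start, the Cybb window held 3 matches to the interferon element, at bases 168 to 159, 124 to 115 and 29 to 20, and 1 match to TGANTCA at bases 139 to 133. The Ncf1 window held 1 match to the interferon element at bases 82 to 73, which overlaps a match to the STAT element at bases 88 to 80, and 1 match to the κB element at bases 51 to 42. The Cyba window held no match to the 5 motifs, and its GC content was 60% against 34% for Cybb and 54.4% for Ncf1. Among all 32851 promoter windows of this length in the table, 2.98% held the interferon element, 6.75% TGANTCA, 7.02% the STAT element, 4.11% the κB element and 23.3% GAGGAA. These matches describe letters in a window and do not show binding.

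In F/F macrophages, Tat treatment was followed by a higher level of the catalytic subunit Cybb and of the GTPase Rac2, and by lower levels of Cyba, Ncf1 and Ncf4 on the TPM as deposited. All 5 genes passed an adjusted p under 0.01 (limma, Benjamini-Hochberg over all tested genes), 2 of them higher and 3 lower. Of all tested genes, 17% passed higher and 67.6% lower. None of the 5 passed a fold change over 3 on the TPM as deposited, which 5.21% of tested genes passed higher and 19.4% lower. The study also required that fold, but on read counts normalized between libraries, which is an unlike measure. With scaling, Cybb came closest to it, at a log2 difference of 1.53, and still fell short. After scaling, 4 of the 5 were higher, none was lower and Cyba was neither, against 37.1% of tested genes higher and 38.1% lower.

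Cybb lies on chromosome X (9435252 to 9487771 of GRCm38, minus strand), and its longest coding transcript has 13 exons. In the GENCODE annotation used for these coordinates, the gene starts upstream of the printed window, which ends at 9469325. The motif positions count from the RefSeq start after that window. In F/F PBS Cybb ranged from 771 to 937 TPM (median 858), and in F/F Tat from 1499 to 1664 TPM (median 1585). Every Tat library was above every PBS library, as for 15.3% of all tested genes, while 62.4% had every Tat library below. The mean rose from 857 ± 79.7 TPM (SD, n = 6) to 1587 ± 56.5 TPM (SD, n = 6), a log2 difference of 0.89 (SE 0.06, adjusted p = 8.98e-12, limma), and of 1.53 after scaling (adjusted p = 9.97e-17). Its difference was at the 90.8th percentile of all tested genes. By mean TPM it was the gene of rank 146 in F/F PBS and of rank 89 in F/F Tat.

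Cyba lies on chromosome 8 (122424776 to 122432930, minus strand) and has a transcript of 744 bases in 6 exons. It was the most abundant of the 5 genes in each group, at rank 20 of all listed genes in F/F PBS and rank 56 in F/F Tat. It ranged from 3576 to 4018 TPM (median 3925) in F/F PBS and from 2209 to 2420.1 TPM (median 2308) in F/F Tat, with every Tat library below every PBS library. The mean fell from 3882 ± 156 TPM to 2309 ± 84.4 TPM, a log2 difference of -0.75 (SE 0.03, adjusted p = 5.89e-15, limma). This was close to the shift of the median tested gene, and the scaled difference was -0.12 (adjusted p = 0.0310, 95% interval -0.22 to -0.02, limma).

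**Figure D1:**
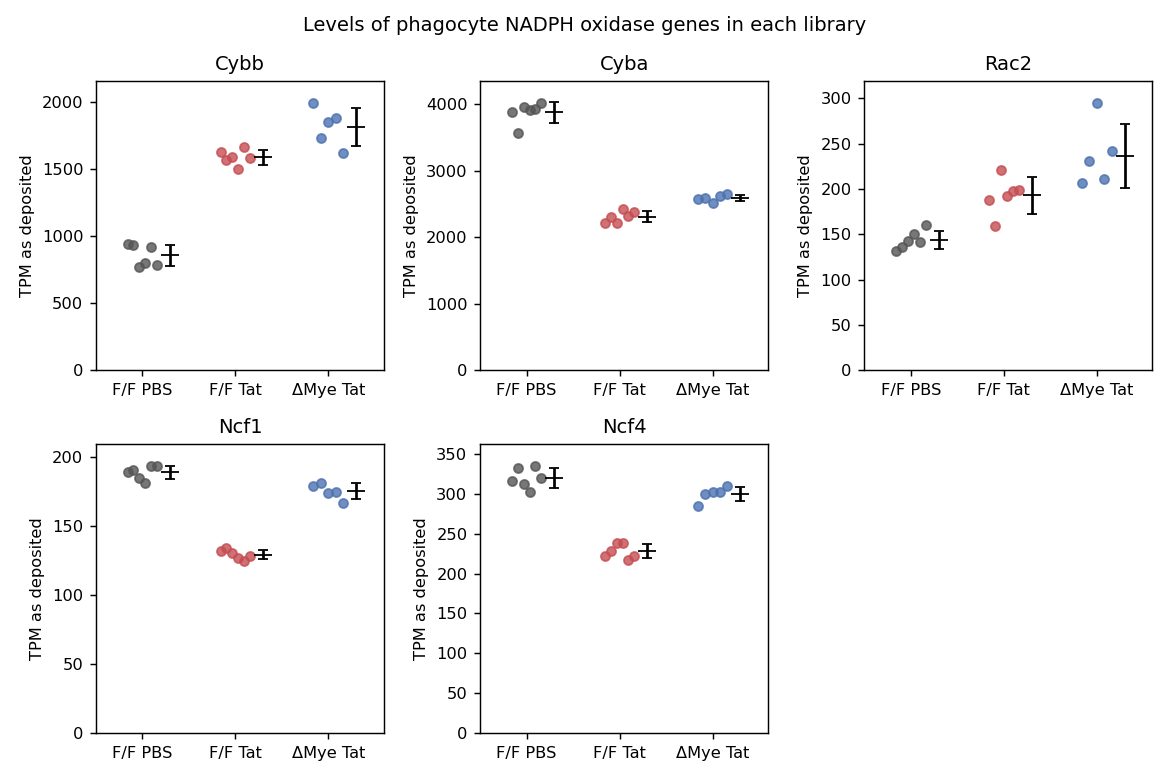
TPM as deposited (vertical axes, each from 0) of the 5 genes in each library, by group, with the mean and SD as bars beside the points. Cybb and Rac2 were higher in both Tat groups than in F/F PBS, Cyba was lower, and Ncf1 and Ncf4 were lowest in F/F Tat.

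The cytosolic subunits moved together. Ncf1 (chromosome 5, 134220053 to 134229625, minus strand) ranged from 181 to 193 TPM (median 189.7) in F/F PBS and from 125 to 134 TPM (median 129) in F/F Tat. Ncf4 (chromosome 15, 78244801 to 78262580, plus strand) ranged from 303 to 335 TPM (median 318) in F/F PBS and from 217 to 239 TPM (median 226) in F/F Tat. For both genes every Tat library was below every PBS library. The log2 difference was -0.55 for Ncf1 (SE 0.03, adjusted p = 4.40e-13, limma) and -0.49 for Ncf4 (SE 0.03, adjusted p = 1.91e-11, limma), but after scaling the direction turned, to 0.086 (adjusted p = 0.00560) and 0.14 (adjusted p = 0.00414). With quantile normalization both stayed lower, at -0.56 and -0.72. Whether Ncf1 and Ncf4 were higher or lower with Tat thus rests on the scaling between libraries.

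Rac2 (chromosome 15, 78559167 to 78572783, minus strand) ranged from 131 to 159.7 TPM (median 142) in F/F PBS and from 159 to 221 TPM (median 194) in F/F Tat. The groups overlapped by a small margin, since 1 Tat library was just below the highest PBS library. The mean was 143 ± 10.3 TPM and 193 TPM (coefficient of variation 10.4%), a log2 difference of 0.42 (SE 0.08, adjusted p = 6.76e-05, limma), and of 1.05 after scaling (adjusted p = 2.41e-09). Its difference was at the 85.7th percentile of tested genes, where Ncf4 was at the 57.8th, Ncf1 at the 55.0th and Cyba at the 45.5th.

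With these changes the order of the levels altered. In F/F PBS the order was Cyba, Cybb, Ncf4, Ncf1 and Rac2, with no overlap between neighbours over the libraries. In F/F Tat, Rac2 was above Ncf1 in every library, and its range overlapped that of Ncf4. In ΔMye Tat the order of the means was as in F/F Tat, and the ranges of Rac2 and Ncf4 overlapped again.

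In ΔMye Tat, each of the 5 genes was higher than in F/F Tat on the TPM as deposited at an adjusted p under 0.01 (limma), against 38.8% of all tested genes higher and 8.87% lower. After scaling, 2 of the 5 were higher and none was lower, against 16.4% of tested genes higher and 18.8% lower. The 2 were Ncf1 and Ncf4. None of the 5 passed the fold change over 3, which 0.44% of tested genes passed higher and 0.316% lower.

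Ncf1 was 179, 181, 174, 174 and 166 TPM in the ΔMye Tat libraries, all above the F/F Tat libraries, as for 28.6% of tested genes, while 8.01% had all ΔMye Tat libraries below. On the TPM as deposited, the mean of 175 ± 5.72 TPM (SD, n = 5) stood between 129 ± 3.42 TPM for F/F Tat and 189 ± 4.91 TPM for F/F PBS. After scaling it was above both, at 182 against 156 for F/F Tat and 147 for F/F PBS. The log2 difference from F/F Tat was 0.44 (SE 0.03, adjusted p = 3.72e-10, limma), which scaling lowered to 0.22 (adjusted p = 1.74e-06).

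Ncf4 was 285, 299, 302, 303 and 309.6 TPM in ΔMye Tat, again above every F/F Tat library. On the TPM as deposited, the mean of 299.7 ± 9.15 TPM likewise stood between 228 ± 8.93 TPM for F/F Tat and 319.8 ± 12.1 TPM for F/F PBS. After scaling it too was above both, at 313 against 276 for F/F Tat and 249 for F/F PBS. The log2 difference from F/F Tat was 0.39 (SE 0.03, adjusted p = 9.01e-09, limma), which scaling lowered to 0.18 (adjusted p = 0.00230). Ncf1 and Ncf4 were at the 74.3rd and 70.5th percentiles of this difference, and Rac2 (59.0th), Cybb (45.9th) and Cyba (43.1st) were nearer to the middle.

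Cyba was 2583, 2591, 2518, 2617 and 2658 TPM in ΔMye Tat, above every F/F Tat library. The log2 difference was 0.17 (SE 0.03, adjusted p = 1.25e-04, limma), less than that of the median tested gene, and it was -0.045 after scaling (adjusted p = 0.489, 95% interval -0.15 to 0.06). Cybb was 1988, 1732, 1851, 1879.6 and 1616 TPM, and 1 of these libraries lay within the range of F/F Tat. Its log2 difference was 0.19 (SE 0.06, adjusted p = 0.00889, limma), which scaling made -0.023 (adjusted p = 0.713, 95% interval -0.12 to 0.08). The call for Cybb was lost when any of 8 libraries was left out, with adjusted p (limma) of 0.0114 without F/F Tat library 7, 0.0169 without 8, 0.0148 without 9, 0.0217 without 10, 0.0154 without 12, 0.0325 without ΔMye library 19, 0.0212 without 21 and 0.0242 without 22.

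Rac2 was 206, 231, 294, 211 and 241 TPM in ΔMye Tat, with a coefficient of variation of 14.9%, the widest of the 15 gene and group combinations. These libraries overlapped those of F/F Tat. The log2 difference was 0.29 (SE 0.08, adjusted p = 0.00604, limma), which scaling made 0.079 (adjusted p = 0.527, 95% interval -0.12 to 0.28). The adjusted p (limma) was 0.0117 without F/F Tat library 7, 0.0156 without 8, 0.0107 without 10, 0.0107 without ΔMye library 20, 0.0209 without 21, the library at 294 TPM, and 0.0133 without 23. The call of Rac2 as higher in ΔMye Tat than in F/F Tat was thus lost when any of 6 libraries was left out. On the TPM as deposited the difference stayed positive, at 0.21 to 0.34, in all 17 such fits.

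**Figure D2:**
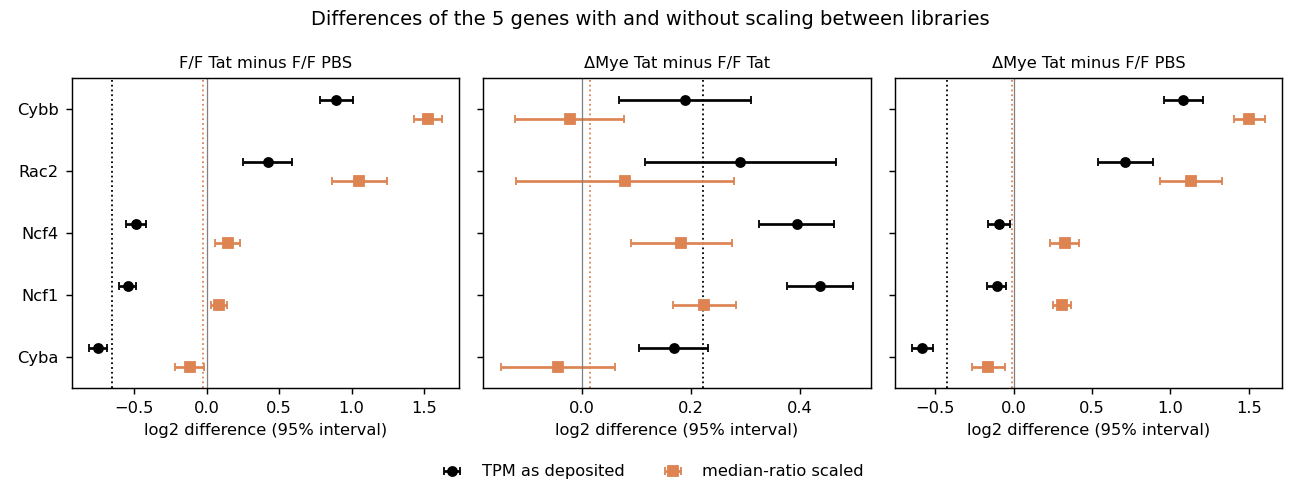
Log2 differences (horizontal axes) of the 5 genes in the 3 comparisons, with 95% intervals from limma, on the TPM as deposited (black circles) and after median-ratio scaling (orange squares). Dotted lines mark the median of all 10451 tested genes. In the comparisons with F/F PBS, Cybb, Rac2, Ncf1 and Ncf4 lie to the right of it and Cyba to the left, under both scalings.

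Values of ΔMye Tat are set beside those of F/F PBS as levels, since this pair differs in genotype and in treatment and shares libraries with the other comparisons. Mean Ncf1 in ΔMye Tat was 92.8% of F/F PBS (log2 difference -0.11, adjusted p = 0.00224, limma) and mean Ncf4 was 93.7% (log2 difference -0.093, adjusted p = 0.0148, limma). For both genes the libraries overlapped, and after scaling both were higher, by 0.31 and 0.33 on the log2 scale. Leaving out library 4 of F/F PBS gave Ncf4 an adjusted p of 0.00632 on the TPM as deposited (limma). Mean Cyba was 66.8% of F/F PBS (log2 difference -0.58, and -0.16 after scaling). Mean Cybb was 212% and mean Rac2 165% of F/F PBS, with a log2 difference of 0.71 for Rac2 that was 1.13 after scaling. For Cybb the 95% interval of the scaled difference was 1.40 to 1.60. No library of the groups overlapped for Cybb, Rac2 or Cyba, as for 14.8% of tested genes with all ΔMye Tat libraries above and 52.8% with all below. Of the 5 genes, 2 were higher and 2 lower at an adjusted p under 0.01 on the TPM as deposited, against 17.5% and 58.8% of tested genes, and 4 were higher and 1 lower after scaling, against 34% and 33.7%.

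Ratios of 2 genes within a library do not depend on the scaling between libraries. Of the 12 tests of 4 ratios in 3 comparisons, 7 gave an adjusted p of 0.00742, the smallest reached (exact permutation tests, two-sided, Benjamini-Hochberg over the 12). The ratio of Cybb to Cyba, the membrane partners, was 0.221 ± 0.0274 in F/F PBS (0.195 to 0.260) and 0.689 ± 0.0434 in F/F Tat (0.619 to 0.737), with no overlap. This is a log2 difference of 1.64 (SE 0.08, exact permutation p = 0.00216). In ΔMye Tat it was 0.700 ± 0.0629, and the log2 difference from F/F Tat was 0.02 (SE 0.07, exact permutation p = 0.779), with ranges that overlapped.

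The ratio of Ncf1 to Cybb, a cytosolic subunit to the catalytic subunit, was 0.222 ± 0.0188 in F/F PBS and 0.0814 ± 0.00372 in F/F Tat. The log2 difference was -1.44 (SE 0.06, exact permutation p = 0.00216). In ΔMye Tat the ratio was 0.0968 ± 0.00647, above every F/F Tat library and below every F/F PBS library, a log2 difference of 0.25 from F/F Tat (SE 0.05, exact permutation p = 0.00433). So Ncf1 was higher relative to Cybb in ΔMye Tat than in F/F Tat whatever the scaling.

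The ratio of Ncf1 to Ncf4 was 0.590 ± 0.0126 with PBS and 0.567 ± 0.0244 with Tat in F/F PMs, and 0.584 ± 0.0344 in ΔMye PMs. The 3 ranges overlapped, and the differences had adjusted p of 0.101, 0.416 and 0.765 (exact permutation tests), the first of which was 0.0455 without F/F Tat library 7. Rac2 relative to Rac1, the GTPase found in most cell types that can also serve the oxidase, rose from 0.669 ± 0.0447 in F/F PBS to 1.19 ± 0.164 in F/F Tat, a log2 difference of 0.82 (SE 0.09, exact permutation p = 0.00216). In ΔMye Tat this ratio was 1.31 ± 0.180, with a log2 difference of 0.15 from F/F Tat (SE 0.12, exact permutation p = 0.247).

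**Figure D3:**
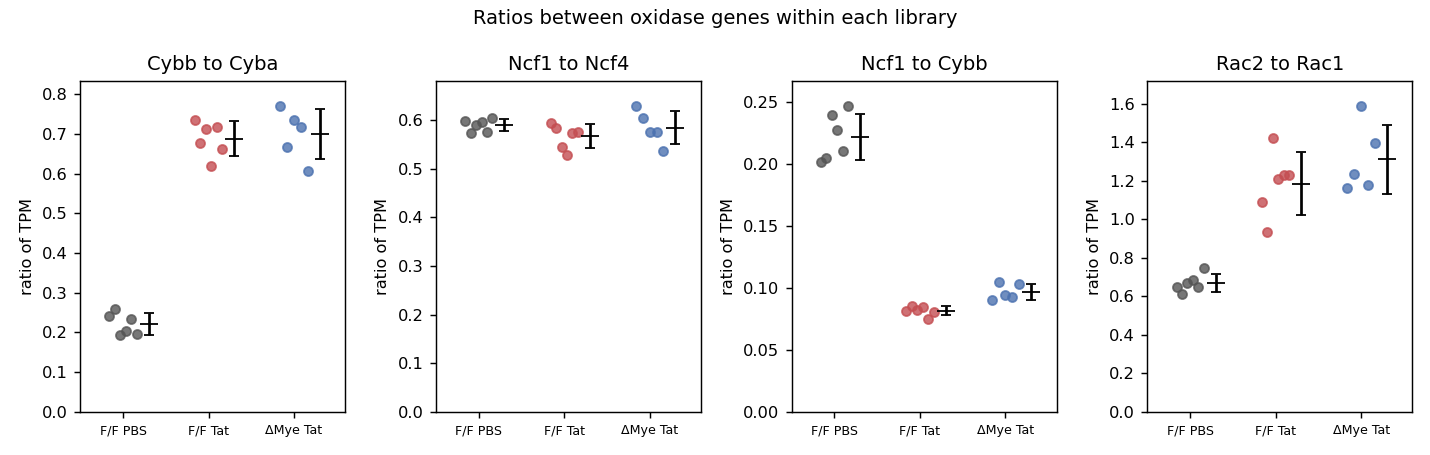
Ratios of TPM within each library (vertical axes, each from 0) for 4 pairs of oxidase genes, by group, with mean and SD. Cybb to Cyba and Rac2 to Rac1 were higher in both Tat groups than in F/F PBS, Ncf1 to Cybb was lower, and Ncf1 to Ncf4 overlapped between the 3 groups.

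Over the 17 libraries, Ncf1 and Ncf4 were the pair of members most alike, with a root mean square difference of 0.06 in log2(TPM + 0.1) centred on each gene's mean of the 3 group means. Cybb and Cyba, at 0.80, were the pair least alike. By the same measure, which describes a pattern over groups and libraries that share their scaling, the nearest other genes to Cybb were Cd44, Klf6 and Lcp1 (0.07 to 0.08). The nearest to Cyba were Sod1, Ndufa12 and Rpl3 (0.05 each), to Ncf1 Ctsh, Tmem168 and Ankrd40 (0.06 each), to Ncf4 Anxa1, Ctsh and Actr1a (0.05 to 0.06), and to Rac2 Ifnar2, Psma6 and Lrrc25 (0.13 to 0.14).

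Beyond the 5 genes, 59 genes in 8 lists that bear on the oxidase were examined, of which 47 were tested. With Tat in F/F macrophages, 11 were higher and 31 lower at an adjusted p under 0.01 (limma), against 17% and 67.6% of all tested genes. After scaling 22 were higher and 18 lower, against 37.1% and 38.1%. Their median log2 difference was -0.46, where that of all tested genes was -0.65. In ΔMye Tat against F/F Tat, 28 were higher and 1 lower, against 38.8% and 8.87% of all tested genes, with a median of 0.26. After scaling 11 were higher and 9 lower, against 16.4% and 18.8%.

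Among accessory components, Hvcn1, the proton channel that offsets the charge moved by the oxidase, fell from 308 ± 12.2 TPM to 149 ± 5.13 TPM with Tat and was 278 ± 18.5 TPM in ΔMye Tat. Its log2 differences of -1.04 and 0.89 (adjusted p = 2.74e-15 and 1.46e-12, limma) were -0.41 and 0.68 after scaling. Cybc1, a chaperone of the membrane subunits, had a difference of -0.14 with Tat (adjusted p = 0.0230, limma), which was 0.49 after scaling (adjusted p = 4.72e-09).

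Of 12 regulators of Rac, 10 were lower with Tat, none was higher, and 5 of the 10 passed the fold change over 3, against 67.6% of all tested genes lower and 19.4% past that fold. Those past the fold were 2 after scaling, for which the count over all tested genes is given further below, and 3 with a pseudocount of 1 TPM. Dock2, an exchange factor that activates Rac in leukocytes, fell from 51.3 ± 3.799 TPM to 9.37 ± 0.517 TPM (log2 difference -2.44, and -1.81 after scaling). Arhgdib, which holds Rac proteins inactive in the cytosol, fell from 547 ± 10.6 TPM to 179 ± 6.20 TPM and was 295 ± 6.66 TPM in ΔMye Tat. Its differences were -1.61 and 0.72, or -0.98 and 0.50 after scaling. Vav1, another exchange factor, was lower by 0.46 but 0.18 higher after scaling. Of the 12 regulators, 4 were higher and 6 lower after scaling, against 37.1% and 38.1% of all tested genes.

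Among 10 tested kinases and phospholipases of activation, 3 were higher and 6 lower with Tat, against 17% and 67.6% of all tested genes, and 5 were higher and 5 lower after scaling, against 37.1% and 38.1%. Prkcd, a protein kinase C that phosphorylates p47phox, was higher by 0.40, or 1.03 after scaling, and Pla2g4a, the cytosolic phospholipase A2 that releases arachidonic acid, by 1.42, or 2.05 after scaling. Mapk14, the p38α kinase, fell from 52.7 ± 3.42 TPM to 5.13 ± 0.411 TPM (log2 difference -3.34, and -2.71 after scaling) and was 17.1 ± 0.567 TPM in ΔMye Tat, 1.72 higher than in F/F Tat (adjusted p = 2.59e-14, limma) and 1.51 higher after scaling. Akt1 was lower with Tat by 1.43, and by 0.80 after scaling.

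Of 6 transcription factors of oxidase genes, 4 were higher with Tat, against 17% of all tested genes, and after scaling these and Spi1 were higher, 5 in all, against 37.1%. Irf1 rose from 124 ± 8.66 TPM to 595 ± 35.0 TPM, a log2 difference of 2.26 (2.89 after scaling), and was the 1 factor past the fold change of 3 on the TPM as deposited. Irf8 rose from 76.0 ± 4.15 TPM to 144 ± 8.57 TPM and was 247 ± 17.7 TPM in ΔMye Tat, 0.77 above F/F Tat (adjusted p = 2.55e-10, limma) and 0.56 after scaling. Spi1, which encodes PU.1, was lower with Tat by 0.42 but higher by 0.21 after scaling, and it was 0.49 higher in ΔMye Tat than in F/F Tat (adjusted p = 2.57e-09, limma) and 0.27 after scaling. Irf1, Irf8 and PU.1 are known to act on the promoter of Cybb.

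All 6 genes of the list on the supply of NADPH, the electron donor, were lower with Tat, as were 67.6% of all tested genes. G6pdx, which feeds the pentose phosphate pathway, fell from 184 ± 5.56 TPM to 81.4 ± 2.37 TPM, and Idh1, the cytosolic isocitrate dehydrogenase, from 116 ± 4.66 TPM to 4.45 ± 0.452 TPM. Their log2 differences were -1.17 and -4.68, and -0.54 and -4.05 after scaling. After scaling 5 of the 6 were still lower, against 38.1% of all tested genes, and the sixth, Me1, was at -0.076 (adjusted p = 0.606, limma). In ΔMye Tat 5 of the 6 were higher than in F/F Tat, against 38.8% of all tested genes, and 3 after scaling, against 16.4%.

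Of the enzymes beside the product, the superoxide dismutase of mitochondria, Sod2, was higher with Tat by 0.74, or 1.37 after scaling, and Sod1, that of the cytosol, was lower by 0.77, or by 0.13 after scaling (adjusted p = 0.0191, limma). Cat, which breaks down hydrogen peroxide, fell from 117 ± 5.49 TPM to 26.2 ± 1.07 TPM (log2 difference -2.15, and -1.52 after scaling). Nos2, the source of nitric oxide, which combines with superoxide, rose from a mean of 0.771 TPM to 897 TPM with Tat in F/F PMs. In ΔMye Tat it was at 443 TPM, with a log2 difference from F/F Tat of -1.03 (adjusted p = 8.08e-08, limma), or -1.24 after scaling. None of the 9 other NADPH oxidases and their partners passed the filter. Nox4, Duox2, Noxa1 and Duoxa1 were listed at 0 in all libraries, and Noxo1 had the highest mean of the 9, at 0.618 TPM in F/F PBS.

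**Figure D4:**
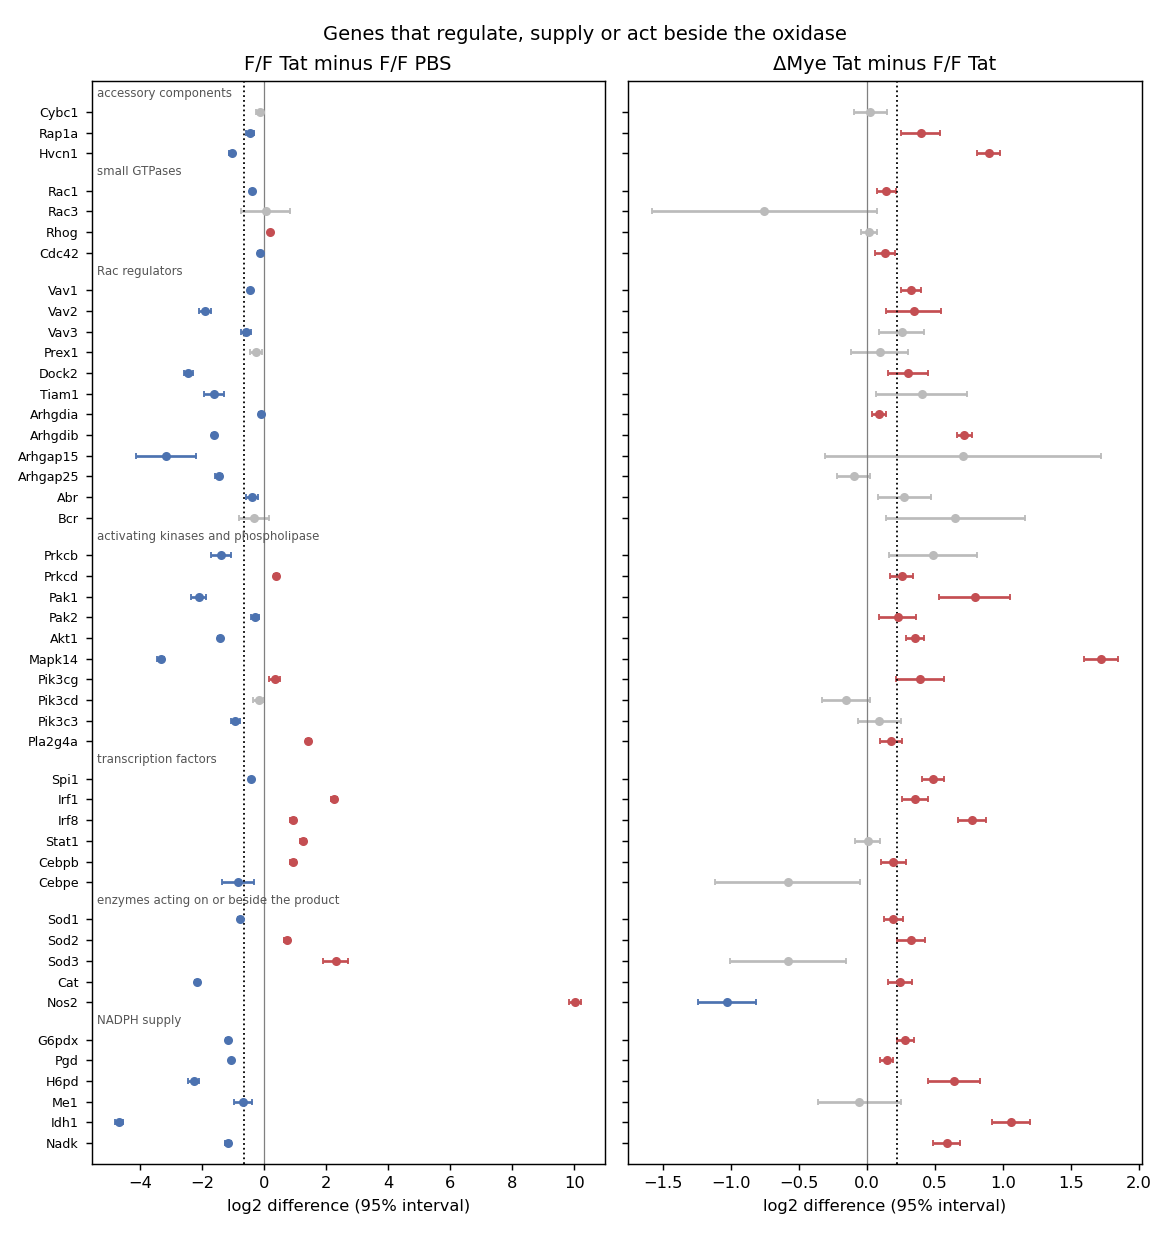
Log2 differences (horizontal axes, TPM as deposited, with 95% intervals from limma) of 46 of the 47 tested genes of the lists, for Tat against PBS in F/F PMs and for ΔMye against F/F PMs given Tat. Red and blue points are higher and lower at an adjusted p under 0.01, grey points are neither, and dotted lines mark the median of all tested genes (-0.65 and 0.22).

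Neutrophils and B cells also express the oxidase, so their markers were summed. Of 10 neutrophil markers, the sum was 73.4 to 84.8 TPM with PBS and 69.6 to 80.8 TPM with Tat in F/F PMs, and 91.8 to 110.3 TPM in ΔMye PMs, most of it S100a8, with a mean of 53.8, 68.6 and 91.4 TPM. Mmp8 (15.9, 2.57 and 3.82 TPM) and Retnlg (5.07, 0.671 and 0.298 TPM) of the same list were highest with PBS. Others of the list were at or near 0, with Elane at 0 in all libraries, Mpo at no more than 0.0172 TPM in mean, and Ly6g at a mean of 0.0338 to 0.351 TPM. The 5 listed B cell markers summed to 12.4 to 25.7, 11.3 to 15.04 and 8.33 to 13.0 TPM, and T cell markers to 3.20 to 7.85, 1.82 to 2.95 and 6.78 to 9.17 TPM. Mast cell markers summed to 16.1 to 34.4 TPM over all libraries, and those of eosinophils and dendritic cells to no more than 2.41 TPM. Their part in the differences of the 5 genes was not tested.

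Some reads of these genes could be shared with others. Of the 31-base sequences of Ncf1, 9.84% also occur in transcripts of other genes, most of them in Gtf2ird2, which overlaps its end on the opposite strand and had a mean of 1.36 to 1.90 TPM in the 3 groups. The share was 7.39% for Cyba, 4.42% for Rac2 and 0% for Cybb and Ncf4. Gm20388, a transcript model that spans Cyba on the opposite strand, was listed at 0 in all Tat libraries.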

How the data were processed

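RNA-Seq libraries of cultured PMs were grouped by their sample labels. The authors made the deposited TPM with Salmon and the Ensembl annotation of GRCm38, and state no scaling between libraries for them (Salmon version not given in the sources used here). Their edgeR test on read counts was not repeated, since TPM hold no counts, and depth and counting error are unknown. The study describes each library as a biological replicate from a mouse. It does not state whether a mouse gave both a PBS and a Tat library, and the tests treated libraries as independent. A gene was tested if 5 or more libraries reached 1 TPM (10451 genes). The log2(TPM + 0.1) values of the 3 groups entered 1 linear model in limma (version 3.58.1, R version 4.3.3) with 14 residual degrees of freedom and a trended prior variance. Fold differences are thus on the log2(TPM + 0.1) scale. Adjusted p are Benjamini-Hochberg over all tested genes, called under 0.01, and with a fold change over 3 where stated. The fit was tested on simulated normal values with no shift between libraries, so that test could not address the scaling. Ratios used exact permutation tests (scipy 1.17.1), called at an adjusted p under 0.05. Median-ratio scaling used genes above 0 in all libraries. Coordinates are from GENCODE M21 and promoters from RefSeq, both GRCm38. An allele that all mice shared and 1 gene of the lists are not reported here. Of the rows, 26 have date-like symbols and 4 hold repeated symbols. The genes and lists were chosen with earlier results of these data known. Named genes are the 5 genes, the label checks Ikbkb and Lyz2, list genes, and for each of the 5 the 3 genes with the nearest pattern. Lyz2, the Cre locus, was 0.69 lower on the log2 scale in ΔMye Tat than in F/F Tat (adjusted p = 1.32e-13). The labels place lavage 3 days after thioglycollate and the methods a day later. Alternatives were other pseudocounts, filters, scalings, fits and tests, and each library left out.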

Additional observations from a re-analysis of the deposited data

Results flagged for a closer look

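The level of Cyba in F/F PBS library 2 was 3576 TPM, far from the other 5 libraries of its group, of which the nearest was at 3888 TPM. The gap was 70.5% of the whole range of the group. It was the 1 value set apart among 33 sets of 5 or 6 libraries examined by Dixon's criterion, which chance passes in about 5% of sets. Every F/F Tat and ΔMye Tat library was below it, and without it the log2 difference of Cyba with Tat in F/F PMs was -0.77.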

How the results depend on the processing

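No paired analysis was possible, because the replicate numbers run on through the groups and give no pairing. Whether cells of the same mouse entered both F/F PBS and F/F Tat is unknown. Median-ratio scaling changed the most results, and it turned the log2 difference of Ncf1 (0.086) and Ncf4 (0.14) with Tat, of Ncf1 (0.31) and Ncf4 (0.33) between ΔMye Tat and F/F PBS, and of Cybb (-0.023) and Cyba (-0.045) between the Tat groups. It also ended the calls of Cyba with Tat (-0.12) and of Rac2 between the Tat groups (0.079). The calls of Cybb and Rac2 between the Tat groups were also lost with quantile normalization (0.22 and 0.26), with no filter on low values (0.19, adjusted p = 0.0189, and 0.29, adjusted p = 0.0127, limma) and in the exact permutation test (0.19, p = 0.0130, and 0.29, p = 0.0216), and that of Rac2 in a fit of those groups alone (0.29, adjusted p = 0.0142, limma). Ncf4 between ΔMye Tat and F/F PBS became a call with quantile normalization (-0.36) and in the exact permutation test (-0.093, p = 0.00866). The exact permutation p of single genes were not adjusted and were set against 0.01 as they stood.

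Over fits that each left out 1 library, the log2 difference between the Tat groups ran from 0.16 to 0.23 for Cybb and from 0.21 to 0.34 for Rac2. That of Ncf4 between ΔMye Tat and F/F PBS ran from -0.11 to -0.075. For ratios it ran from -0.072 to -0.039 for Ncf1 to Ncf4 with Tat, from -0.042 to 0.015 for the same ratio between ΔMye Tat and F/F PBS, and from -0.014 to 0.071 for Cybb to Cyba between the Tat groups. The list genes called with Tat were 22 higher and 18 lower after scaling, against 37.1% and 38.1% of all tested genes. Those between the Tat groups were 11 higher and 9 lower, against 16.4% and 18.8%. Between ΔMye Tat and F/F PBS, 22 were higher and 19 lower after scaling, against 34% and 33.7%. On the TPM as deposited this last pair gave 11 higher and 26 lower, against 17.5% and 58.8%. With a pseudocount of 1 TPM, and with no filter, 2 list genes were lower between the Tat groups, against 1. Over all tested genes, Tat gave 545 higher and 2031 lower at a fold over 3, 1774 and 7068 without a fold threshold, and 889 and 1020 at a fold over 3 after scaling. The other settings, which were a pseudocount of 0.5 TPM, a filter at 5 TPM and robust weights, changed no call of the 5 genes. Unknown depth limits what can be said of genes near 0. Causes were not tested.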

Other observations

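Counted after the matches were seen, 4 of the 32851 promoter windows held at least 3 matches to the interferon element, and that of Cybb is among them.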
